A study of Mus musculus with 22 samples.

Results

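Polyadenylated RNA ends in the mouse Hist1 gene clusters were followed across 20 3′READS libraries of 3 cell lines. 3′READS captures RNA by its poly(A) tail and sequences the fragment next to the tail, so each read marks the position of a polyadenylated 3′ end. The members are the sites listed on chromosome 13 (mm9), on either strand, in chr13:21800000-22045000 (window A) or chr13:23600000-23870000 (window B), with at least 5 reads pooled over the 20 libraries. This gave 245 member sites, of 612268 sites in all the files and 121543 with at least 5 pooled reads. The members were chosen by their pooled reads, which are described here without a test, and only differences between groups of libraries were tested.

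Replication-dependent histone mRNAs, the products of most genes in these clusters, are unusual in that they normally end in a stem-loop and carry no poly(A) tail. Their 3′ end is cut at the stem-loop by a complex that holds the stem-loop binding protein SLBP and the U7 small nuclear ribonucleoprotein, and they accumulate during S phase. Some histone genes also yield polyadenylated mRNA from a poly(A) site downstream of the stem-loop, which is known in differentiated cells that have left the cell cycle. PCF11 is a subunit of the machinery that cleaves and polyadenylates ordinary mRNAs, and it also acts in transcription termination. A 3′READS library therefore reads the minor polyadenylated form of a histone RNA and not its stem-loop form.

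The libraries fall into 10 groups of 2. C2C12 cells, a mouse myoblast line that can be made to differentiate into muscle cells, were sequenced differentiated (diff) and proliferating (pro), both labelled untreated. 4T1 cells, a mouse mammary carcinoma line, were labelled Pcf11-IPAKO or were untreated controls. Given the series' title, this label is read as a change at the intronic poly(A) site of Pcf11, and whether its libraries came from 1 clone is not given in the sources used here. NIH3T3 fibroblasts were labelled siPcf11 or were untreated controls. C2C12 cells labelled siPcf11 and untreated C2C12 controls were each sequenced as 4sU-labelled RNA, after 1 h in 50 µM 4-thiouridine (a uridine analogue built into newly made RNA), and as RNA with no such label, called total RNA here. All libraries are labelled with the strain C57BL/6. No control siRNA is named, so an effect of transfection cannot be told apart from an effect on Pcf11. The files pair no gene name with a site and the gene table at hand is of another build, so neither Pcf11 itself nor markers of the cell lines could be checked in these libraries, loci are called by position, and other genes inside the windows may own some of them. No base sequence is shown, as no mm9 genome was used here.

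The libraries held 1887532 to 4432717 reads, and the 2 libraries of every group differed by more than counting noise over all loci (chi-square per degree of freedom 1.94 to 13.9). Nothing says that they came from separate cultures, and a p-value here reflects no more than library-to-library spread, part of which can be technical. In bulk RNA, fewer cells that make an RNA and less of it per cell cannot be told apart.

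The windows held 949 sites with any read. The 704 sites under the minimum carried 1160 of the 13008 window reads, and the members carried the other 11848, or 91.1%. At the edge of the rule, 30 members had exactly 5 pooled reads and 45 sites just outside it had 4. Most members were weak. The median member had 12 pooled reads, 169 had at most 20, and 19 had at least 100. Window A held 88 members with 2581 reads and window B 157 members with 9267 reads. The plus strand carried 149 members and 8234 reads, the minus strand 96 members and 3614 reads.

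Sites lying within 500 nt of each other on a strand were chained into a locus. The 245 sites formed 91 loci, 37 in window A and 54 in window B. Of these, 47 were a single site, 30 held 2 to 4 sites and 14 held 5 to 21 sites over 200 to 1858 nt. A few loci carried most of the reads. The locus chr13:23831400-23832337 on the plus strand alone carried 36.2% of all member reads, and 98.0% of those lay at the single site 23832232. The 12 loci with the most reads together carried 71.4%.

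The cell lines used different sites. Of the 245 members, 172 had a read in 4T1, 139 in C2C12 and 41 in NIH3T3. Reads came from 4T1 alone at 99 members, from C2C12 alone at 59 and from NIH3T3 alone at 5, and 25 members were read in all 3 lines. Only site 23832232 on the plus strand and site 23795720 on the minus strand were read in all 20 libraries. How sites were clustered is not stated, and 23 of the 99 sites read in 4T1 alone lay within 24 nt of a member never read in 4T1, so part of this difference in position may lie in how the site tables of each experiment were made, which was not tested. C2C12 also has 12 libraries and the other lines 4 each.

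**Figure D1:**
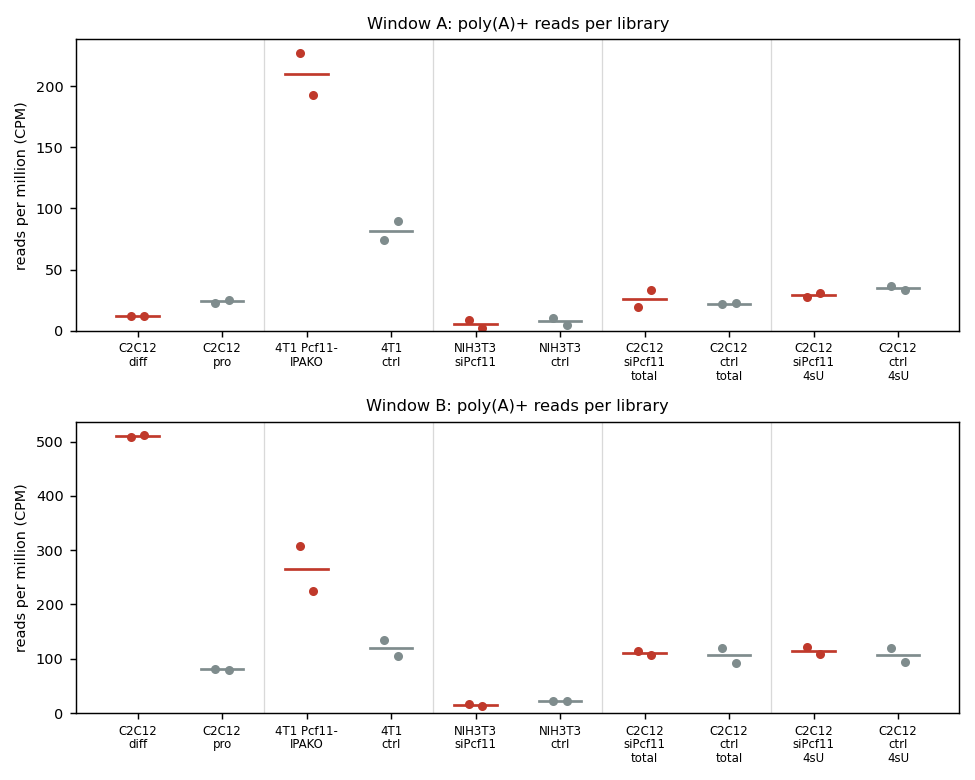
Reads scaled to a library of 1000000 reads (CPM) at Hist1 members in window A (top) and window B (bottom), for each of the 20 libraries. Points are libraries and bars the mean of the 2 in a group. In window B the differentiated C2C12 libraries stand at 509 and 512 CPM, above all others, and in window A the 4T1 Pcf11-IPAKO libraries are highest, at 227 and 192 CPM.

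The share of polyadenylated RNA that ended in the Hist1 windows differed widely between the lines. In CPM, that is, counts scaled to a library of 1000000 reads, control NIH3T3 libraries had 32.1 and 27.6, control 4T1 libraries 209 and 195, proliferating C2C12 libraries 104 and 105, and untreated C2C12 total RNA libraries of the siRNA experiment 141 and 116. NIH3T3 was thus lowest and 4T1 highest, with C2C12 between them, and these untreated groups did not overlap between lines. The 95% exact binomial interval covers counting error only. It ran in the first control NIH3T3 library from 26.2 to 39.0 CPM and in the first control 4T1 library from 190.4 to 229 CPM. No label says whether the lines were grown and sequenced together. An effect of line cannot be told apart from one of experiment here, and the order is given without a test.

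Within each line the reads were also spread differently. The plus-strand locus at 23831400 averaged 35.7 ± 5.5 CPM in proliferating C2C12, 5.88 ± 1.90 CPM in control 4T1 and 4.88 ± 3.29 CPM in control NIH3T3 (SD, n = 2 each). The minus-strand locus chr13:21841777-21842014 ran the other way. It averaged 38.9 ± 0.1 CPM in control 4T1 and 3.72 ± 0.38 CPM in proliferating C2C12 (SD, n = 2 each) and had no read in the NIH3T3 libraries, where 3 reads would be 0.784 to 1.07 CPM. A minus-strand site at 23626187 was the most read in control NIH3T3 after the locus at 23831400, with 4.61 ± 1.12 CPM (SD, n = 2).

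**Figure D2:**
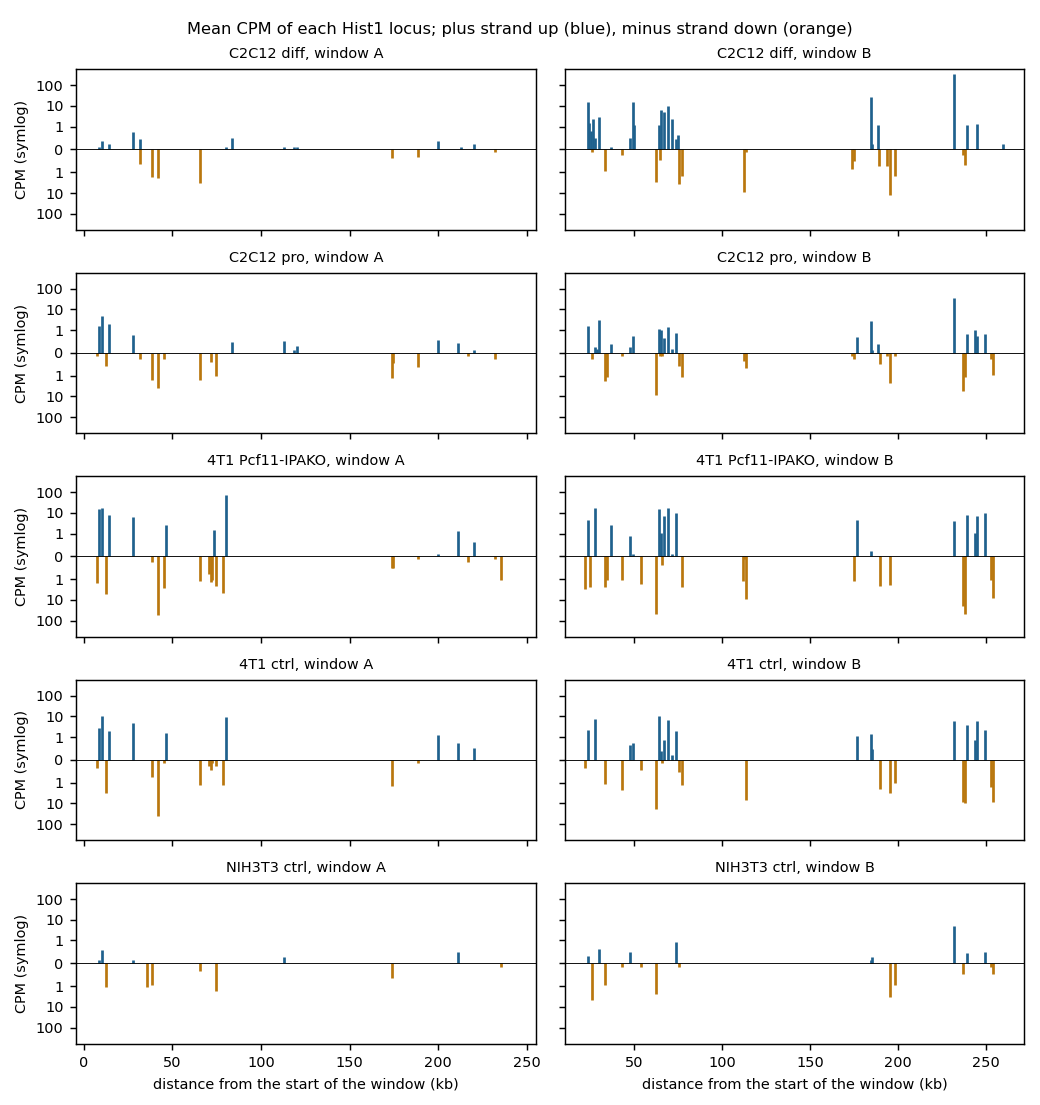
Mean CPM of each Hist1 locus (2 libraries a group, symmetrical log axis that is linear below 1) against its distance from the start of window A (left) or B (right), in kb. Plus-strand loci point up and minus-strand loci down. The tall bar near 231 kb in window B of differentiated C2C12 is the locus at 23831400, with a mean of 374 CPM.

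Differentiated C2C12 cells had about 5.01 times the Hist1 poly(A)+ reads of proliferating cells. The differentiated libraries had 521 and 524 CPM, against 104 and 105 CPM in the proliferating libraries. The groups lay far apart and the libraries of each were almost equal. With all members summed into 1 row of the count table, the log2 fold change was 2.47 ± 0.12 (SE), with an adjusted p of 6.77e-45 in edgeR's quasi-likelihood test over all rows. The members were chosen partly by these reads. Without the differentiated reads 23 of the 245 members would have missed the minimum of 5 pooled reads, against 11 without the proliferating reads. This p-value and those of the windows and single loci are therefore given as a description.

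The rise in reads lay in window B, and window A fell. Window B had 509 and 512 CPM in differentiated cells, against 81.3 and 79.2 CPM in proliferating cells (log2 fold change 2.82 ± 0.11 (SE), adjusted p = 4.925e-24). Window A had 11.9 and 12.2 CPM in differentiated cells, against 22.7 and 25.4 CPM in proliferating cells (log2 fold change −0.86 ± 0.22 (SE), adjusted p = 0.000785). The groups did not overlap in either window, and they moved in opposite directions. Window B held 97.7 ± 0.03% of the Hist1 reads in differentiated cells, against 76.9 ± 1.7% in proliferating cells (SD, n = 2 each).

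Of the 91 loci, 16 had enough reads for a test in this comparison. With adjusted p under 0.05 as the threshold, 11 rose and 3 fell. Of all 15215 loci tested, 59.8% passed, 31.3% higher and 28.5% lower. The median log2 fold change was 2.88 over the 16 loci and 0.02 over all loci tested. A locus could pass the filter on low counts through the differentiated libraries alone, which favours loci that are higher there, so neither the count nor the median describes the 91 loci. Over the 78 loci with any read in these 4 libraries, both differentiated libraries were above both proliferating libraries at 26 and below them at 23. The same count was not made over all loci, so whether these numbers are unusual is not known.

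The locus at 23831400, plus strand, made up 81.0% of the difference in CPM. It had 379 and 370 CPM in differentiated cells, against 39.6 and 31.8 CPM in proliferating cells, from 3106 and 258 reads. Its log2 fold change was 3.54 ± 0.13 (SE), with an adjusted p of 3.57e-26. Nearly all of these reads were at site 23832232, which had 1464 and 1635 reads in the differentiated libraries, against 127 and 122 reads in the proliferating libraries. This site is therefore a single polyadenylated end that dominates the Hist1 reads of differentiated cells.

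Without that locus, the remaining Hist1 reads were still higher in differentiated cells. They came to 142 and 154 CPM in differentiated cells, against 64.4 and 72.7 CPM in proliferating cells. The exact permutation test (two-sided) gave a p of 0.3333, its lower limit in a design of 2 against 2. Many of these reads came from a stretch of window B between 23623347 and 23669957 and from loci further along it.

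The steepest rise among the tested loci was at chr13:23649345-23649348 on the plus strand. It had 16.5 and 15.6 CPM in differentiated cells, against 1.23 and 0.247 CPM in proliferating cells (log2 fold change 4.62 ± 0.45 (SE), adjusted p = 4.48e-12). All 133 reads of the differentiated cells lay at site 23649348. Nearly as steep was the minus-strand locus chr13:23712390-23712495, with 8.53 and 8.80 CPM in differentiated cells, against 0 and 0.740 CPM in proliferating cells (log2 fold change 4.43 ± 0.58 (SE), adjusted p = 1.26e-08). Both ends were close to silent in proliferating cells.

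Plus-strand locus chr13:23784357-23784514 had 23.8 and 29.8 CPM in differentiated cells, against 1.84 and 3.70 CPM in proliferating cells (log2 fold change 3.35 ± 0.30 (SE), adjusted p = 3.31e-13). Another plus-strand locus, chr13:23623347-23623887, had 13.2 and 18.3 CPM in differentiated cells, against 1.84 and 1.23 CPM in proliferating cells (log2 fold change 3.50 ± 0.38 (SE), adjusted p = 1.06e-10). Of the 2 main sites of the second locus, the downstream one at 23623887 had 23 and 43 reads in the differentiated libraries, against 0 and 2 reads in the proliferating libraries. The upstream one at 23623391 had 28 and 38 reads in the differentiated libraries, against 6 and 3 reads in the proliferating libraries. The upstream site thus held 54.9% and 46.9% of their reads in the differentiated libraries, against 100% and 60% in the proliferating libraries, where the shares rest on 11 reads in all. Site use was not tested.

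The other 6 loci that rose had log2 fold changes between 1.32 and 3.03. A run of 3 neighbouring plus-strand loci, chr13:23665397-23665397, chr13:23666784-23667541 and chr13:23668100-23669957, averaged 6.66 ± 0.81, 5.19 ± 0.33 and 10.5 ± 2.0 CPM in differentiated cells, against 0.983 ± 0.345, 0.647 ± 0.480 and 1.38 ± 0.21 CPM in proliferating cells (SD, n = 2 each). On the minus strand, the locus chr13:23795523-23795720 averaged 12.6 ± 1.4 CPM in differentiated cells and 2.28 ± 0.62 CPM in proliferating cells, and the site 23675608 averaged 3.79 ± 1.34 CPM in differentiated cells and 0.583 ± 0.476 CPM in proliferating cells (SD, n = 2 each). The call at 23675608 did not hold without diff replicate 2. Window A had 1 called rise, at the minus-strand site 21865469, with 2.58 and 4.29 CPM in differentiated cells, against 2.45 and 0.740 CPM in proliferating cells (adjusted p = 0.0273). Its libraries of different state lay as close as 2.58 and 2.45 CPM, and the call did not hold in 4 of 11 alternative analyses, among them DESeq2 and the omission of diff replicate 2 or pro replicate 2.

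Of the 3 loci that fell, 2 were nearly lost. Minus-strand locus chr13:23836687-23836910 had 0 and 0.451 CPM in differentiated cells, against 4.60 and 5.67 CPM in proliferating cells (log2 fold change −4.13 ± 0.69 (SE), adjusted p = 1.65e-06). It lies within a few kb of the site at 23832232, on the opposite strand, and so neighbouring ends in window B went in opposite directions. In window A, the plus-strand locus chr13:21809986-21810137 had 0.517 and 0.226 CPM in differentiated cells, against 5.52 and 4.44 CPM in proliferating cells (log2 fold change −3.53 ± 0.63 (SE), adjusted p = 5.25e-06). The minus-strand locus chr13:23662310-23662557 had 2.58 and 3.16 CPM in differentiated cells, against 8.59 and 8.38 CPM in proliferating cells (log2 fold change −1.41 ± 0.38 (SE), adjusted p = 1.33e-03). Of the tested loci, the other 2 did not pass, the plus-strand site 23630167 at −0.04 ± 0.46 and the minus-strand locus at 21841777 at −0.88 ± 0.47 (log2 fold change ± SE, adjusted p = 0.952 and 0.102).

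At a common depth of 1887532 reads, 54.8 and 57.4 member sites had a read in the differentiated libraries, against 50.9 and 56.8 in the proliferating libraries. These counts overlapped. With at least 2 reads asked of a site, 37.0 and 34.6 were seen in the differentiated libraries, against 27.3 and 27.3 in the proliferating libraries, and the groups did not overlap (ratio of means 1.31). The exact permutation test (two-sided) gave a p of 0.3333, the smallest it can give here. More members owe their place to the differentiated reads than to the proliferating reads, which favours the differentiated libraries in both counts. The 5 most read loci of each state held 85.3% of Hist1 reads in differentiated cells and 55.2% in proliferating cells.

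**Figure D3:**
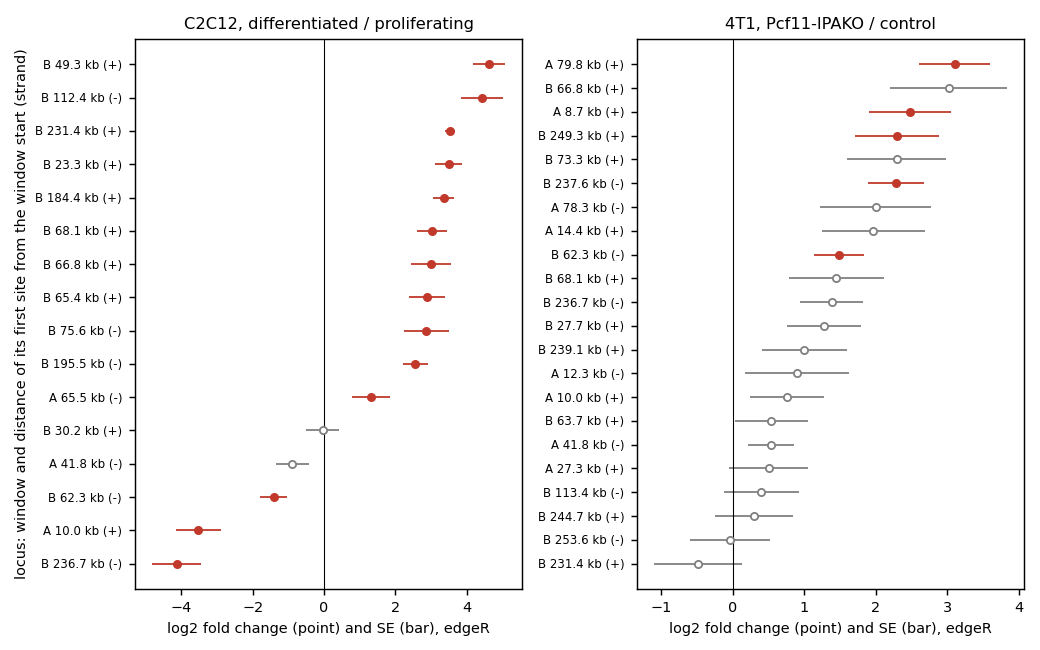
Log2 fold change (point) and its standard error (bar) of each tested Hist1 locus, for differentiated over proliferating C2C12 (left, 16 loci) and for Pcf11-IPAKO over control 4T1 (right, 22 loci), named by window and distance in kb from the window's start. Filled red points passed an adjusted p of 0.05. On the left 11 passed above 0 and 3 below, and on the right 5 passed, all above 0. The sites were chosen partly by the reads compared, so the calls are a description.

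In 4T1 cells, Hist1 poly(A)+ reads were higher in Pcf11-IPAKO libraries. They had 534 and 417 CPM, against 209 and 195 CPM in control 4T1 libraries. The groups did not overlap, and the Pcf11-IPAKO libraries differed from each other by more than the controls did. For the sum of the members the log2 fold change was 1.30 ± 0.31 (SE), with an adjusted p of 0.0282. The members were chosen partly by the Pcf11-IPAKO reads, so this p-value and those of the windows and single loci are given as a description. The call did not hold when Pcf11-IPAKO replicate 1 was left out (log2 fold change 0.99, adjusted p = 0.265) or when control replicate 2 was (1.19, adjusted p = 0.117).

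Both windows moved alike, unlike in differentiation. Window A had 227 and 192 CPM in Pcf11-IPAKO cells, against 74.0 and 89.8 CPM in control cells (log2 fold change 1.42 ± 0.30 (SE), adjusted p = 0.0178). Window B had 307 and 225 CPM in Pcf11-IPAKO cells, against 135 and 105 CPM in control cells (log2 fold change 1.21 ± 0.33 (SE), adjusted p = 0.04935). Whether the windows differed between differentiation and Pcf11-IPAKO was not tested.

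In this comparison 22 loci could be tested, and 5 rose and none fell. Of all 12894 loci tested, 6.02% passed, 5.26% higher and 0.76% lower. Another 7 Hist1 loci were higher at an unadjusted p under 0.05 and did not pass the adjusted one, and 20 of the 22 fold changes were above 0. Of all 12894 loci, 2145 had an unadjusted p under 0.05, in either direction. Over the 67 Hist1 loci with any read in these 4 libraries, both Pcf11-IPAKO libraries were above both controls at 27 and below them at 8. Neither that last count nor the count of fold changes above 0 was made over all loci, so whether these numbers are unusual is not known. The median log2 fold change was 1.33 over the 22 loci and −0.004 over all loci tested. DESeq2 called 4 Hist1 loci, all higher, and 598 of all 12894 loci. The number called by edgeR moved with the library left out, which leaves 1 library in that group. With the replicate number as a block edgeR called 10 Hist1 loci. The block also raised the calls over all 12894 loci, from 776 to 2036. Same-numbered 4T1 libraries deviated together (r = 0.35 across loci), though no label says that the numbers pair them. The choice of members leans on these libraries. Without the Pcf11-IPAKO reads 74 of the 245 members would have missed the minimum of 5 pooled reads, and without the control 4T1 reads 23. The counts over members that passed, the sum, the windows and the p-values of single loci are therefore a description. Window sites left out by the minimum were also higher in Pcf11-IPAKO libraries, at 87.2 CPM against 26.7 CPM in control libraries.

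The rise was steepest at chr13:21879823-21880870 on the plus strand, the locus with the most sites. It had 99.2 and 57.3 CPM in Pcf11-IPAKO cells, against 4.51 and 13.9 CPM in control 4T1 cells (log2 fold change 3.11 ± 0.50 (SE), adjusted p = 4.96e-03). Its 21 sites spread over 1048 nt, with a median spacing of 44.5 nt, and 19 of them were read in 4T1 alone. The most read, 21880065, had 132 reads in Pcf11-IPAKO libraries and 17 in control libraries, and 21879993 had 59 and 3. Both C2C12 and NIH3T3 hardly used this locus, which averaged 0.113 CPM in differentiated C2C12 and had no read in proliferating C2C12 or NIH3T3.

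The minus-strand locus chr13:23837638-23837837 had 48.3 and 43.3 CPM in Pcf11-IPAKO cells, against 11.7 and 8.0 CPM in control 4T1 cells (log2 fold change 2.29 ± 0.39 (SE), adjusted p = 7.02e-03). The rise was uneven among its sites. Site 23837837, which C2C12 also used, had 73 reads in Pcf11-IPAKO libraries and 41 in control libraries. Downstream on the minus strand, site 23837786 had 90 reads in Pcf11-IPAKO libraries and 11 in control libraries, and site 23837638 had 48 and 2. The extra reads thus lay mostly at ends further from the site that the cell lines share.

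A like rise was seen at the minus-strand locus at 23662310, with 52.4 and 46.6 CPM in Pcf11-IPAKO cells, against 19.4 and 17.3 CPM in control 4T1 cells (log2 fold change 1.49 ± 0.35 (SE), adjusted p = 0.0269). Here the balance between its 2 main ends shifted as well. Of the reads at site 23662532 and at site 23662400, which lies downstream on the minus strand, the upstream site held 97.0% and 89.1% in Pcf11-IPAKO libraries, against 53.8% and 61.7% in control 4T1 libraries. In C2C12 the downstream end was the more used in total RNA, and the upstream site held 0% and 15.4% of these reads in differentiated cells, against 24% and 20.6% in proliferating cells. Control NIH3T3 libraries used neither and had 11 and 4 reads at site 23662509.

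The remaining called rises were smaller loci. Plus-strand locus chr13:21808728-21808911 had 17.7 and 13.3 CPM in Pcf11-IPAKO cells, against 1.35 and 4.00 CPM in control 4T1 cells (log2 fold change 2.48 ± 0.58 (SE), adjusted p = 0.0269). The plus-strand site 23849255 had 10.9 and 9.68 CPM in Pcf11-IPAKO cells, against 1.81 and 2.40 CPM in control 4T1 cells (log2 fold change 2.29 ± 0.59 (SE), adjusted p = 0.0409). That last call did not hold in 7 of 11 alternative analyses, among them DESeq2 and the omission of any 1 of the 4 libraries. The locus at 21808728 did not pass without Pcf11-IPAKO replicate 1 or without control replicate 1, and the locus at 23662310 not without Pcf11-IPAKO replicate 1 or without control replicate 2.

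The loci that led in differentiation did not lead here. The locus at 23831400 had 3.63 and 4.33 CPM in Pcf11-IPAKO cells, against 7.22 and 4.53 CPM in control 4T1 cells, a log2 fold change of −0.48 ± 0.62 (SE) that did not pass (adjusted p = 0.79). The locus at 23836687, which fell in differentiated C2C12, had 22.3 and 18.4 CPM in Pcf11-IPAKO cells, against 9.03 and 7.20 CPM in control 4T1 cells, without passing after adjustment (log2 fold change 1.38 ± 0.44 (SE), adjusted p = 0.0998). The most read Hist1 locus of control 4T1 cells, at 21841777, had 54.5 and 54.0 CPM in Pcf11-IPAKO cells, against 38.8 and 38.9 CPM in control cells (log2 fold change 0.53 ± 0.32 (SE), adjusted p = 0.468). Its share of library reads was higher in both Pcf11-IPAKO libraries, though by less than the test requires.

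Pcf11-IPAKO libraries also showed more sites, and not in Hist1 alone. At the common depth, 127 and 129.7 member sites were seen in Pcf11-IPAKO libraries, against 85.5 and 103 in control 4T1 libraries, a ratio of means of 1.36 (1.61 for sites with at least 2 reads). In the whole genome, 104627 and 131612 sites were seen in Pcf11-IPAKO libraries, against 50050.2 and 67224 in control libraries, a ratio of 2.01. The groups did not overlap in either count. The part of this genome-wide gain of sites in the Hist1 result was not tested. The count of member sites favours Pcf11-IPAKO libraries. Without their reads 74 of the 245 members would have missed the minimum, against 23 without the control 4T1 reads. The whole-genome count has no such minimum, so the ratios of the 2 counts are not for like sets. Sites read in 4T1 alone held 55.8% and 47.7% of Hist1 reads in Pcf11-IPAKO libraries, against 40.0% and 38.2% in control libraries.

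**Figure D4:**
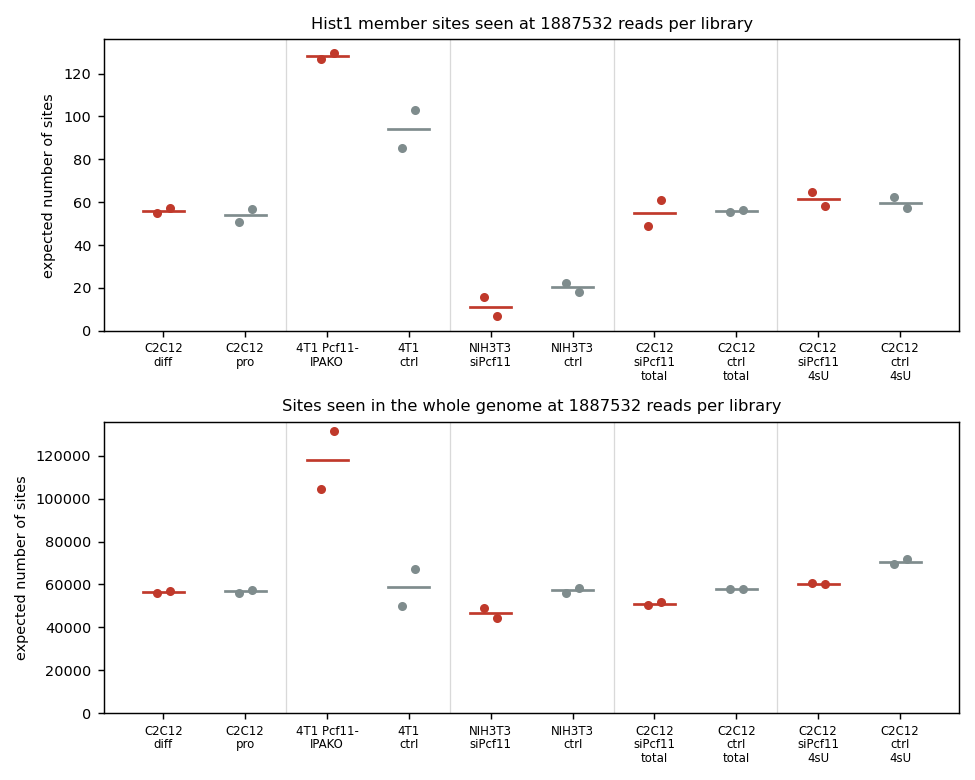
Expected number of sites seen when each library is brought to 1887532 reads, for Hist1 members (top) and for the whole genome (bottom). Points are libraries and bars group means. Pcf11-IPAKO libraries are highest in both panels, with 127 and 129.7 Hist1 sites, against 85.5 and 103 in control 4T1 libraries. The Hist1 members were chosen partly by the Pcf11-IPAKO reads, and the genome count has no read minimum.

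In C2C12, siPcf11 and control libraries had overlapping Hist1 levels in total and in 4sU RNA. In total RNA the siPcf11 libraries had 134 and 141 CPM, against 141 and 116 CPM in control libraries. After TMM scaling, which gave the siPcf11 libraries factors near 0.91 and the control libraries near 1.1, the log2 fold change was 0.37 ± 0.15 (SE) with an adjusted p of 0.0234. Scaled to library totals it was 0.10 (adjusted p = 0.601), without control replicate 2 it was 0.14 (adjusted p = 0.573), and without siPcf11 replicate 2 it missed the threshold at 0.36 (adjusted p = 0.0942). The median log2 fold change of all loci was −0.20 with library totals and 0.07 with TMM. A change of scaling moves the sum and the median locus alike, so the gap between them is no separate support. In 4sU RNA the siPcf11 libraries had 149 and 139 CPM, against 157 and 128 CPM in control libraries (log2 fold change 0.28 ± 0.14 (SE), adjusted p = 0.0893), and the sum passed without control 4sU replicate 1 (0.49, adjusted p = 0.0174). The siPcf11 responses of 4sU and total RNA differed by −0.09 ± 0.20 on the log2 scale (SE, adjusted p = 0.942), with the sign turned without control 4sU replicate 1 (0.21) or control total RNA replicate 2 (0.19).

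By window, also after TMM scaling, window A passed in total RNA and window B in 4sU RNA. Window A had 19.6 and 33.0 CPM in siPcf11 total RNA, against 21.6 and 22.6 CPM in control total RNA (log2 fold change 0.55 ± 0.24 (SE), adjusted p = 0.0466). Window B had 121.3 and 108.8 CPM in siPcf11 4sU RNA, against 120.4 and 94.2 CPM in control 4sU RNA (log2 fold change 0.36 ± 0.15 (SE), adjusted p = 0.0354). The CPM of the groups overlapped in both cases. Window B in total RNA had a log2 fold change of 0.33 ± 0.15 (SE) and did not pass (adjusted p = 0.0556). Window A in 4sU RNA had 27.5 and 30.5 CPM in siPcf11 cells, against 36.2 and 33.5 CPM in control cells (log2 fold change −0.01 ± 0.22 (SE), adjusted p = 0.98). The difference between the 4sU and total RNA responses did not pass in window A (−0.56 ± 0.33 (SE), adjusted p = 0.613) or in window B (0.03 ± 0.22 (SE), adjusted p = 0.985).

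Of the loci, 8 could be tested in C2C12 siRNA libraries. In total RNA 2 were higher and none lower, and fewer were called without control replicate 2 or without siPcf11 replicate 2. In 4sU RNA 2 were higher and 1 lower. Over all 13841 loci, 52% passed in total RNA (27.3% higher, 24.7% lower) and 51.4% in 4sU RNA (25.4% higher, 26% lower). The Hist1 counts of 2 of 8 and 3 of 8 rest on few loci, several with few reads. Whether they differ from those shares was not tested. With library totals in place of TMM the whole-table calls leaned to lower values, with 2559 higher and 4486 lower in total RNA and 2402 higher and 4823 lower in 4sU RNA.

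A single locus was called in both kinds of RNA, chr13:23784357-23784514 on the plus strand. In 4sU RNA it had 22.9 and 26.7 CPM in siPcf11 cells, against 9.35 and 7.16 CPM in control cells (log2 fold change 1.84 ± 0.32 (SE), adjusted p = 1.17e-07). In total RNA it had 14.8 and 9.37 CPM in siPcf11 cells, against 6.62 and 2.02 CPM in control cells (log2 fold change 1.75 ± 0.41 (SE), adjusted p = 1.21e-04). In total RNA the call did not hold without control replicate 2, whose level was the lowest. This locus also rose in differentiated cells, and site 23784357 carried 470 of its 477 pooled reads.

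The minus-strand locus at 23662310 had 13.3 and 12.9 CPM in siPcf11 4sU RNA, against 5.85 and 6.03 CPM in control 4sU RNA (log2 fold change 1.39 ± 0.38 (SE), adjusted p = 1.15e-03). In total RNA it had 9.54 and 12.2 CPM in siPcf11 cells, against 14.1 and 3.63 CPM in control cells, and the groups overlapped (adjusted p = 0.169). The plus-strand site 23630167 fell. It had 6.41 and 5.73 CPM in siPcf11 4sU RNA, against 21.8 and 16.6 CPM in control 4sU RNA (log2 fold change −1.39 ± 0.37 (SE), adjusted p = 6.20e-04). In total RNA it had 3.18 and 4.48 CPM in siPcf11 cells, against 9.71 and 5.65 CPM in control cells, without passing (log2 fold change −0.68 ± 0.47 (SE), adjusted p = 0.216).

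In total RNA the other called locus was chr13:21827319-21828111 on the plus strand, with 4.24 and 5.30 CPM in siPcf11 cells, against 2.21 and 0.404 CPM in control cells (log2 fold change 2.15 ± 0.74 (SE), adjusted p = 9.62e-03). It rests on 21 reads in siPcf11 and 6 in control libraries, and was not called by DESeq2, without control replicate 2 or without siPcf11 replicate 2. The locus at 23831400, the main Hist1 end of C2C12, had 46.1 and 50.5 CPM in siPcf11 total RNA, against 46.8 and 44.8 CPM in control total RNA (log2 fold change 0.36 ± 0.19 (SE), adjusted p = 0.112). No locus differed between the siPcf11 responses of 4sU and total RNA in edgeR, at an adjusted or an unadjusted p under 0.05. Of all loci tested, 0.614% did so after adjustment. DESeq2 gave no adjusted p for any of the 8 Hist1 loci there.

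In untreated C2C12 cells, 4sU RNA was set against total RNA. The 4sU libraries had 157 and 128 Hist1 CPM, against 141 and 116 CPM in total RNA (log2 fold change 0.17 ± 0.14 (SE), adjusted p = 0.437), and the groups overlapped. The sign of this difference turned without 4sU replicate 1 (−0.074) or without total RNA replicate 2 (−0.065). Window A was higher in 4sU RNA, with 36.2 and 33.5 CPM, against 21.6 and 22.6 CPM in total RNA (log2 fold change 0.67 ± 0.23 (SE), adjusted p = 0.0198). Window B showed 120.4 and 94.2 CPM in 4sU RNA, against 119.6 and 92.9 CPM in total RNA (log2 fold change 0.03 ± 0.15 (SE), adjusted p = 0.908). Of 8 loci 1 was called, against 22.8% of all loci (12.3% higher, 10.5% lower). It was the site 23630167, with 21.8 and 16.6 CPM in 4sU RNA, against 9.71 and 5.65 CPM in total RNA (log2 fold change 1.34 ± 0.34 (SE), adjusted p = 1.14e-03). That call did not hold in DESeq2, without 4sU replicate 1 or without total RNA replicate 2. These comparisons share their control libraries with the siPcf11 comparisons.

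**Figure D5:**
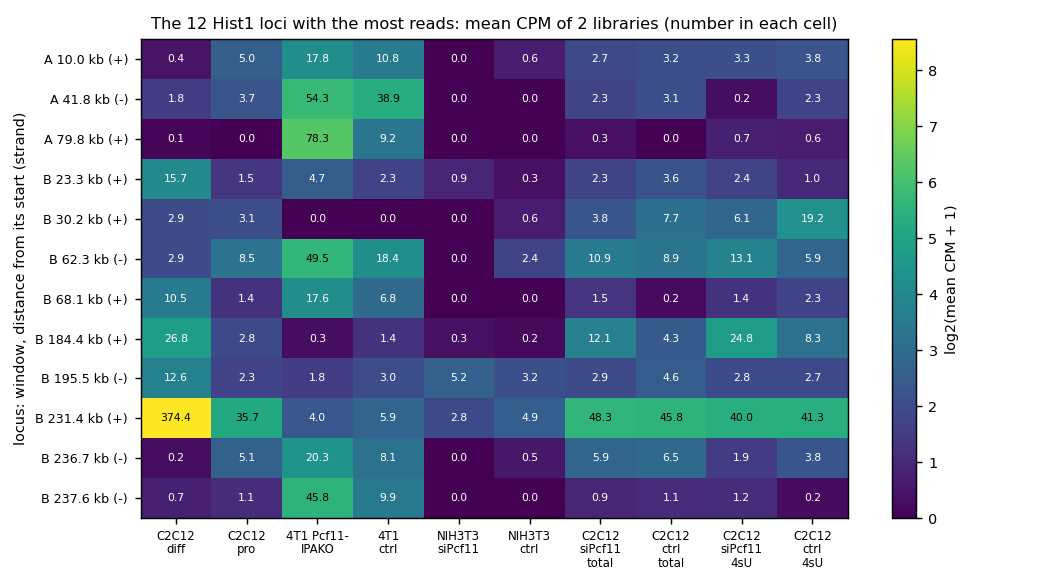
Mean CPM (number in each cell, 2 libraries a group) and its log2 after adding 1 (colour) of the 12 most read Hist1 loci in the 10 groups, named by window and distance in kb from the window's start. The row at 231.4 kb in window B stands at 374 CPM in differentiated C2C12 and 35.7 CPM in proliferating C2C12, and the row at 79.8 kb in window A at 78.3 CPM in Pcf11-IPAKO and 9.19 CPM in control 4T1.

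NIH3T3 cells gave the fewest Hist1 reads. Libraries labelled siPcf11 had 26.1 and 15.7 CPM, against 32.1 and 27.6 CPM in control libraries, from 133 and 193 reads in all. The lower siPcf11 library set the difference, and the log2 fold change of −0.49 ± 0.36 (SE) did not pass (adjusted p = 0.534). Without siPcf11 replicate 1 it was −0.96 and without siPcf11 replicate 2 it was −0.15, each from a fit with 1 siPcf11 library. Of the 3 loci with enough reads for a test none was called by edgeR, and none had an unadjusted p under 0.05. Of all 16226 loci tested 0% passed in edgeR, though 2847 had an unadjusted p under 0.05, whereas DESeq2 called 405 of 11192 loci in its own filter. The 2 siPcf11 libraries differed widely over all loci (chi-square per degree of freedom 13.9, against 2.76 between the control libraries). That spread enters the test, so the 0% does not show that loci did not respond. The minus-strand site 23626187 averaged 5.07 ± 0.59 CPM in siPcf11 cells and 4.61 ± 1.12 CPM in control cells, and the minus-strand locus at 23795523 averaged 5.20 ± 3.29 CPM in siPcf11 cells and 3.22 ± 1.40 CPM in control cells (SD, n = 2 each). At the common depth, 16.0 and 6.70 member sites were seen in siPcf11 libraries, against 22.4 and 18.0 in control libraries. Sites over the whole genome were also fewer, with 48986 and 44432 in siPcf11 libraries, against 55939 and 58481 in control libraries, and the part of this in the Hist1 counts was not tested.

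RNA-seq of 3T3-L1 preadipocytes, with 1 library a group, is the only place where the Hist1 genes could be read by name. It allows no test. The library labelled siPcf11 held 6992460 counts and the untreated control 8573956, and neither lists a gene with under 5 counts. Pcf11 had 840 counts in the library labelled siPcf11 and 939 in the control, a log2 ratio of 0.13 after scaling to library totals, so the labelled knockdown is not seen in this gene's counts and a direction below is one between libraries.

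Of the Hist1 gene symbols, 18 were listed in either library, 11 in the library labelled siPcf11 and 15 in the control, with 163 and 272 counts in all. Most were close to the lowest count listed. Hist1h1c, which encodes a linker histone, was the most counted, with 83 counts in the library labelled siPcf11 and 122 in the control (log2 ratio −0.26, exact 95% interval of counting error −0.68 to 0.15). Next came Hist1h2bj, which encodes a histone H2B, with 15 and 13 counts, and Hist1h2bm, also an H2B gene, with 7 and 15. No interval of the 8 genes compared left out 0. Their median log2 ratio was −0.19, beside −0.03 over all 11014 genes with at least 10 counts, of which 4.49% were 1.5-fold or more higher and 7.6% as much lower. Among the 8, none was that much higher and 2 were that much lower. The 8 leave out symbols listed in 1 library alone. Hist1h4h, Hist1h4c and Hist1h2bc were listed in the control alone, with 15, 12 and 10 counts. So were Hist1h2be, Hist1h2ak, Hist1h2bf and Hist1h2ab, with 9, 8, 8 and 5 counts. Hist1h2aa, Hist1h4k and Hist1h4f were listed in the library labelled siPcf11 alone, with 6, 6 and 5 counts.

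The lists of other histone genes and of factors for histone mRNA ends were read in the same way. The 9 compared genes of replication-independent histones, whose mRNAs are mostly polyadenylated in the usual way, had a median log2 ratio of −0.15. H1f0, a linker histone of non-dividing cells, had 562 counts in the library labelled siPcf11 and 908 in the control (log2 ratio −0.40). The 13 compared factors of histone mRNA 3′ ends had a median of 0.04. Slbp, the stem-loop binding protein, had 660 counts in the library labelled siPcf11 and 929 in the control (log2 ratio −0.20), and Lsm10, a component of the U7 particle, had 37 and 102 (log2 ratio −1.17), the only one of the 13 past 1.5-fold. Zfp473, a zinc finger protein that acts with the U7 particle, could not be compared, as it had 19 counts in the control and is not listed in the library labelled siPcf11. The 17 S phase and cell cycle genes had a median of −0.03 and none was past 1.5-fold in either direction. In the other replication-dependent clusters 3 genes could be compared, with a median log2 ratio of 0.96, and 2 were past 1.5-fold higher in the library labelled siPcf11. Hist2h2ac, which encodes a histone H2A, had 23 counts in the library labelled siPcf11 and 8 in the control (log2 ratio 1.82, exact 95% interval of counting error 0.61 to 3.19). Hist2h2ab, also an H2A gene, had 19 and 12 counts (log2 ratio 0.96, interval −0.16 to 2.13).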

How the data were processed

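The authors deposited, for each 3′READS library, a list of poly(A) sites with unnormalized read counts, and for each RNA-seq library read counts per gene symbol. The submitters' processing notes name cutadapt, Bowtie2, STAR and the build mm9 and give no version. How sites were clustered is not given in the sources used here. Sites with at least 5 pooled reads (10 as an alternative) were chained per strand over gaps of up to 500 nt (0 and 2000). Counts of all loci, with library sizes set to the deposited totals, were tested with edgeR 4.0.16 (R 4.3.3, limma 3.58.1): TMM, filterByExpr with a minimum count of 10, quasi-likelihood F-tests, Benjamini-Hochberg adjustment over all loci, threshold 0.05. A common fit held the 8 C2C12 libraries of the siRNA experiment, and each other experiment had a fit of its own. CPM are reads scaled to 1000000 deposited reads of a library. Sites at a common depth are hypergeometric expectations at 1887532 reads. Intervals are exact at 95% and, like floors of 3 counts, cover counting error only, since PCR reads are not independent molecules. DESeq2 1.42.0, other scalings, no filter, the replicate block and each library left out were alternatives. The test script was tried on simulated counts with known changes. The text names the 12 loci with most reads, every called locus, 23626187 as a tested NIH3T3 locus, and Hist1 symbols and lists in RNA-seq. The members and lists were chosen with earlier results of these data known. Replicate numbers are not said to mark a shared culture or day, and same-numbered libraries did not deviate together in all pairs (r from −0.011 to 0.35), so libraries were not paired. Python 3.11.15, pandas 2.3.3, numpy 2.4.6, scipy 1.17.1 and matplotlib 3.10.9 were used.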

Additional observations from a re-analysis of the deposited data

Results flagged for a closer look

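Reads also fell on the 704 window sites that the minimum of 5 pooled reads left out. In 4T1 these sites averaged 87.2 CPM in Pcf11-IPAKO libraries (98.1 and 76.2), against 26.7 CPM in control libraries (22.1 and 31.2). In C2C12 they averaged 14.7 CPM in differentiated cells, against 8.21 CPM in proliferating cells, and 11.0 CPM in siPcf11 total RNA, against 9.32 CPM in control total RNA. In each of these comparisons both libraries of the first group lay above both of the other. With 2 libraries against 2 the exact permutation p was 0.3333, the smallest it can be.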

How the results depend on the processing

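The differentiation sum kept its direction and its call under all alternatives run. With no low-count filter, 22 of 78 Hist1 loci were called in differentiation (15 higher, 7 lower), against 10029 of all 48598 loci. The median log2 fold change of the 78 loci was then 0.08. For Pcf11-IPAKO in 4T1, the log2 fold change of the sum was 1.32 with single sites (adjusted p = 0.0514) and ran from 0.99 (without Pcf11-IPAKO replicate 1, adjusted p = 0.265) to 1.55 with a library left out. The count of called Hist1 loci was 10 with the replicate block and moved with the library left out. The block moved no other count of called Hist1 loci and no call of a sum, and no label pairs the numbers. In 4T1 it also raised the calls over all loci, from 776 to 2036. For siPcf11 in C2C12 total RNA, the sum missed the threshold with DESeq2 (0.32, adjusted p = 0.137), library totals (0.10, 0.601), DESeq2 size factors (0.32, 0.0598), no filter (0.28, 0.273), single sites (0.26, 0.137), a gap of 2000 nt (0.27, 0.0947) and only the compared libraries (0.28, 0.0889), and ran from 0.14 to 0.43 with a library left out. Its called loci were 1 with DESeq2, single sites or a minimum of 10 pooled reads, and 0 to 3 with a library left out. In 4sU RNA the siPcf11 sum passed with a gap of 2000 nt (0.33, adjusted p = 0.0369) and without control 4sU replicate 1 (adjusted p = 0.0174), and ran from 0.19 to 0.49. For 4sU against total RNA, no Hist1 locus was called with DESeq2 (1659 of 10621 loci in all) or a gap of 2000 nt (3173 of 11934). The Hist1 count moved with the library left out, and the sum ran from −0.074 to 0.24. The difference in siPcf11 response changed sign with single sites (0.048) and a gap of 2000 nt (0.055) and ran from −0.14 to 0.21. In NIH3T3 the sum ran from −0.96 (without siPcf11 replicate 1) to −0.15 (without siPcf11 replicate 2). Site 23630167 went to 2.33 in differentiation with a gap of 2000 nt, where it is merged with neighbouring loci. The cause of the other changes was not tested. The 2 windows were tested under the reported settings alone. Of the values for single loci, 690 kept direction and call, 10 gained the call, 25 lost it and 1 reversed. With 2 libraries a group and a median of 12 reads a site, most of the 91 loci had too few reads for a test.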
